A study of Mus musculus with 2 samples.

Results

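The genes described here encode the NF-E2, NRF, small Maf and Bach transcription factors together with the NRF2 inhibitor KEAP1, measured in mouse G1E-ER4 erythroid cells. They are 10 genes of the 43346 with an Ensembl identifier in the expression tables, taken by gene symbol. Earlier results of these data were known when the genes were chosen. Both libraries came from the same condition. G1E-ER4 is a clone of the Gata1-null G1E line that carries GATA-1 fused to the hormone-binding part of the oestrogen receptor, and estradiol activates the fusion and starts differentiation. The cells had been in 10 nM 17beta-estradiol for 24 hours, and polyadenylated RNA was sequenced from single ends as biological replicates 1 and 2, with 20412826 and 18564086 expected counts. No untreated library was analysed here, so the values are levels in induced cells and no level can be read as a change. With 2 libraries of 1 group no test between conditions was possible. Errors are the SD over n = 2 libraries. The labels number these as biological replicates but give both the same biosample entry, so the spread may be technical.

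NF-E2 is a dimer of a large erythroid subunit, encoded by Nfe2, and a small Maf protein. The NRF factors (genes Nfe2l1, Nfe2l2 and Nfe2l3) and the repressors BACH1 and BACH2 share the same type of basic leucine zipper and also need a small Maf partner (MAFK, MAFG or MAFF) to bind DNA. The dimers meet on closely related sites in globin genes and in genes of haem, iron and oxidant defence, where NF-E2 and NRF proteins activate and BACH proteins repress. Haem makes BACH1 leave DNA, and KEAP1 holds NRF2 for breakdown until oxidants release it.

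The coding sequences show how close the family members are and whether reads of 36 bases can be told apart between them. For the small Mafs, the 20 aligned codons with the most shared bases lie in the DNA-contacting basic region, and 51 of 60 bases were the same in all 3 genes. The same rule applied to Nfe2 and its detected relatives found their basic region, where only 31 of 60 bases were shared. Capitals mark the bases that are not the same in every sequence of a set, read 5′ to 3′ on the coding strand from GENCODE M21 transcripts (GRCm38).

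Mafk (chr5:139800202-139800261, plus strand): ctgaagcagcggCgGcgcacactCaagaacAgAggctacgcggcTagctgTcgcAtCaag
Mafg (chr11:120629560-120629619, minus strand): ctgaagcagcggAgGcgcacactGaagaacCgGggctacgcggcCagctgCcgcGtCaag
Maff (chr15:79357538-79357597, plus strand): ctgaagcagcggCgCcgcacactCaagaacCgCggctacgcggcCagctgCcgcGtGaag

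Nfe2 (chr15:103248702-103248761, minus strand): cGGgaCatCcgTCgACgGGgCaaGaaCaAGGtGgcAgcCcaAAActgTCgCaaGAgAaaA
Nfe2l1 (chr11:96819470-96819529, minus strand): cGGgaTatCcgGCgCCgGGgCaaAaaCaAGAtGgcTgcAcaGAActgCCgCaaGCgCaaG
Nfe2l2 (chr2:75676225-75676284, minus strand): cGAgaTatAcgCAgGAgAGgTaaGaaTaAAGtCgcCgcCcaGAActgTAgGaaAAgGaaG
Bach1 (chr16:87722507-87722566, plus strand): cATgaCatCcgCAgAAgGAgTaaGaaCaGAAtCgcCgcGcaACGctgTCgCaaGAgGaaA

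In the small Mafs the window covers codons 52 to 71 of each gene. Over the whole aligned coding sequence, Mafk and Mafg were identical at 75.2% of bases, Mafk and Maff at 70.8% and Mafg and Maff at 69.6%. The longest run of identical bases was 23 between Mafk and Mafg, 17 between Mafk and Maff and 23 between Mafg and Maff. Nfe2 and Nfe2l1 shared 52.6% of 1077 aligned bases and Nfe2 and Nfe2l2 48.6% of 1029, with longest runs of 12 and 10 bases. No word of 36 bases occurred in transcripts of more than 1 of the 10 genes on either strand, so a read that matches without error belongs to a single member of the family.

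Of the 10 genes, 8 reached 1 TPM in each library, the threshold for calling a gene detected, where TPM is a read count divided by effective transcript length and scaled to the same total in each library. Nfe2l3 and Bach2 were not detected. Of all 21474 protein-coding genes, 41.2% passed the same threshold. Their median mean level was 0.08 TPM, against 39.3 TPM for the 10 genes. The plot of levels by library shows the order described below.

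**Figure D1:**
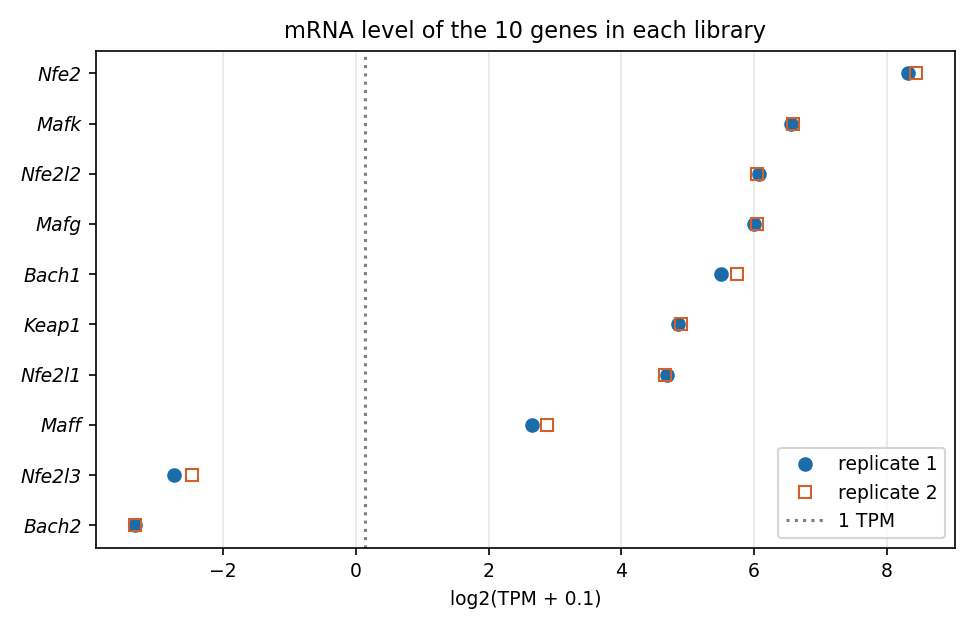
Level of each of the 10 genes in both libraries on the log2(TPM + 0.1) scale, with a filled circle for replicate 1, an open square for replicate 2 and a dotted line at 1 TPM. Nfe2 stands apart at the top, the middle of the order runs from Mafk to Nfe2l1, and Nfe2l3 and Bach2 lie left of the line.

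Nfe2, the erythroid and megakaryocytic subunit gene, was the highest of the 10 with 319.8 TPM in replicate 1 and 346 TPM in replicate 2, from 7114 and 6721 expected counts. Its mean of 333 ± 18.6 TPM was exceeded by 338 protein-coding genes. It is on chromosome 15 from 103248212 to 103258403. Nfe2l2, which encodes the oxidant-response factor NRF2, had 67.2 and 65.9 TPM, a mean of 66.6 ± 0.926 TPM. Nfe2l1, the gene of NRF1, which drives proteasome genes when proteasome activity falls, had 25.6 and 25.1 TPM, a mean of 25.3 ± 0.339 TPM. In each library Nfe2 was above Nfe2l2 and Nfe2l2 above Nfe2l1, and the libraries of these genes did not overlap. Nfe2l3, the gene of NRF3, held 2 and 3 counts, or 0.05 and 0.08 TPM, at or under the 3 counts that a count of 0 allows.

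Within each library Nfe2 exceeded Nfe2l2 by 2.32 ± 0.10 on the log2 scale of TPM, a 5.0-fold ratio, and Nfe2l1 by 3.72 ± 0.10, a 13.1-fold ratio (SD, n = 2). Nfe2l1 lay below Nfe2l2 at a log2 ratio of -1.40 in replicate 1 and -1.39 in replicate 2. From expected counts, which are not divided by length, Nfe2 exceeded Nfe2l1 by 2.12 and Nfe2l2 by 1.51.

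Among the small Mafs, which have no activation domain of their own, Mafk was the highest with 94.4 and 95.7 TPM, a mean of 95.1 ± 0.912 TPM. Mafg followed with 64.2 and 65.9 TPM, a mean of 65.025 ± 1.20 TPM. Maff was far lower with 6.19 and 7.27 TPM, a mean of 6.73 ± 0.764 TPM, from 186 and 199 counts. Mafk exceeded Mafg by 0.55 ± 0.01 and Mafg exceeded Maff by 3.28 ± 0.14 on the log2 scale of TPM. Of the summed small Maf TPM, Mafk held 57.3% and 56.7%, Mafg 38.9% and 39.0%, and Maff 3.76% and 4.31% in replicates 1 and 2. The mean share of Mafk was 57.0% ± 0.434 (SD, n = 2).

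Bach1, the haem-regulated repressor gene on chromosome 16 from 87698945 to 87733346, had 45.2 and 53.4 TPM, a mean of 49.3 ± 5.85 TPM and the widest relative spread of the genes above 10 TPM. Bach2, known for its role in B cells, held 0 counts in both libraries, in the same cells in which Bach1 held 3506 and 3447. Against the 3 counts that 0 allows per library, Bach1 was higher than Bach2 by at least about 1169-fold in replicate 1. In replicate 2 it was at least 1149-fold, both in expected counts. These ratios are without division by length. On the TPM scale the same floor gave 775-fold and 835-fold at the deposited effective length of Bach2. Listed Bach2 transcripts run from 331 to 8882 bases, so these 2 values depend on the length assumed. Counting error of Bach1 is not included. The deposited posterior mean TPM, which is above 0 for a gene without reads, was 0.64 and 0.69 for Bach2 and 42.8 and 50.5 for Bach1. Of 10 B lymphoid markers none was detected, with summed levels of 0.77 and 0.82 TPM. Pax5 and Ms4a1 were at 0 counts in both libraries. Keap1 had 28.9 and 29.8 TPM, a mean of 29.4 ± 0.587 TPM, and lay below its binding partner gene Nfe2l2 at a log2 ratio of -1.18 ± 0.05.

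In the order of mean TPM, Nfe2 was followed by Mafk, Nfe2l2, Mafg, Bach1, Keap1, Nfe2l1 and Maff. Of the 7 neighbouring pairs of detected genes, 6 had the same order in both libraries and a gap larger than the sum of their SDs. The pair Nfe2l2 and Mafg had a gap of only 0.03 on the log2(TPM + 0.1) scale against a summed SD of 0.05, and they could not be ordered. Levels of mRNA do not give protein amounts, and NRF1, NRF2 and BACH1 are also controlled as proteins.

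The genes that need a small Maf partner summed to more mRNA than the small Mafs did. Nfe2, the 3 NRF genes and both Bach genes reached 458 and 491 TPM together, and the 3 small Maf genes 165 and 169 TPM. The log2 ratio of small Mafs to partners was -1.51 ± 0.05, so partner mRNA was 2.84-fold higher. Nfe2 alone held 69.9% of the partner sum in replicate 1 and 70.6% in replicate 2, and Bach1 9.86% and 10.9%. In expected counts Nfe2 held 47.9% and 48.0% and Bach1 23.6% and 24.6%, since Bach1 transcripts are long. Nfe2 exceeded Bach1 by 2.76 ± 0.09 on the log2 scale of TPM but by 0.99 in expected counts.

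By share of all expected counts, the ratio of replicate 2 to replicate 1 ran from 0.986-fold for Nfe2l2 to 1.18-fold for Maff. Its exact 95% Clopper-Pearson interval included equality for 6 of 8 detected genes, which depends on read number as well as on the ratio. The 2 exceptions were Nfe2, with a 1.04-fold ratio (1.005 to 1.07), and Bach1, with 1.08-fold (1.03 to 1.13). Such intervals cover counting error only, and 44.7% of the 8853 detected protein-coding genes lay outside theirs. Maff had the widest interval, from 0.958-fold to 1.44-fold around 1.18-fold, and the fewest reads of the 8. On the TPM scale the ratio was larger for Nfe2, at 1.08-fold, and for Bach1, at 1.18-fold.

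**Figure D2:**
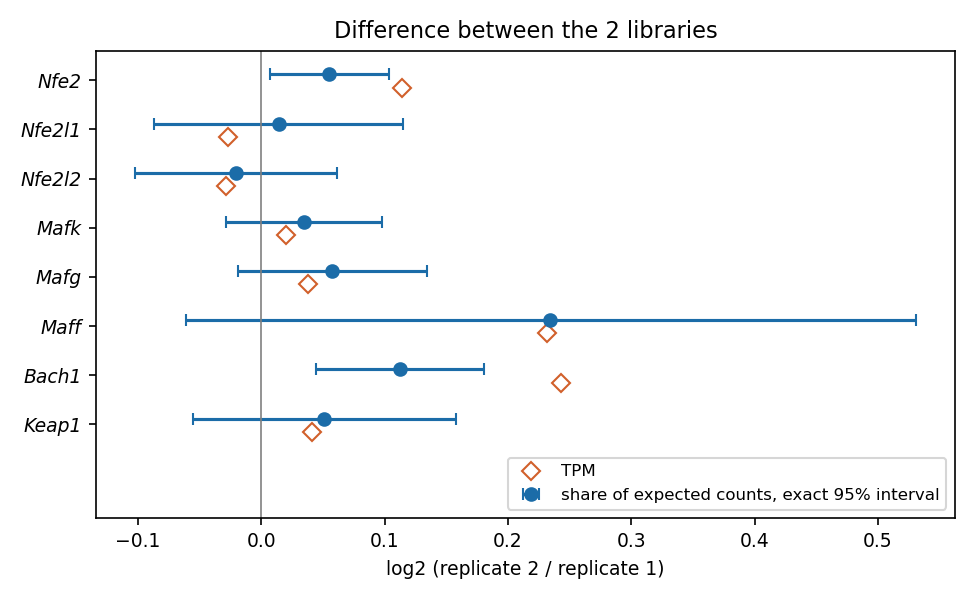
Log2 ratio of replicate 2 to replicate 1 for the 8 detected genes, with circles for the share of expected counts, bars for the exact 95% interval of counting error and diamonds for TPM. The diamonds of Nfe2 and Bach1 lie to the right of their bars, and those of the other 6 genes lie within theirs.

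The TPM differences of Nfe2 and Bach1 lay on particular transcripts, as the plot of transcript shares shows. Bach1 was divided between the coding transcript Bach1-201, of 5867 bases and 739 codons, and Bach1-203, a retained-intron transcript of 2210 bases without annotated coding sequence. Bach1-201 had 32.9 TPM in replicate 1 and 32.7 TPM in replicate 2. Bach1-203 had 12.3 and 20.7 TPM, or 27.1% and 38.8% of the gene's TPM. The coding transcript was therefore level in both libraries while the retained-intron transcript was higher in replicate 2. In reads, Bach1-203 had posterior mean counts of 424 with a deposited posterior SD of 47.4, and 661 with 43.0, and of its 2175 words of 36 bases 312 occurred in no other Bach1 transcript. Retained-intron transcripts of all genes together also held more of replicate 2, at 11.9% of TPM against 10.7% in replicate 1, and the part this has in the Bach1 value was not tested.

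**Figure D3:**
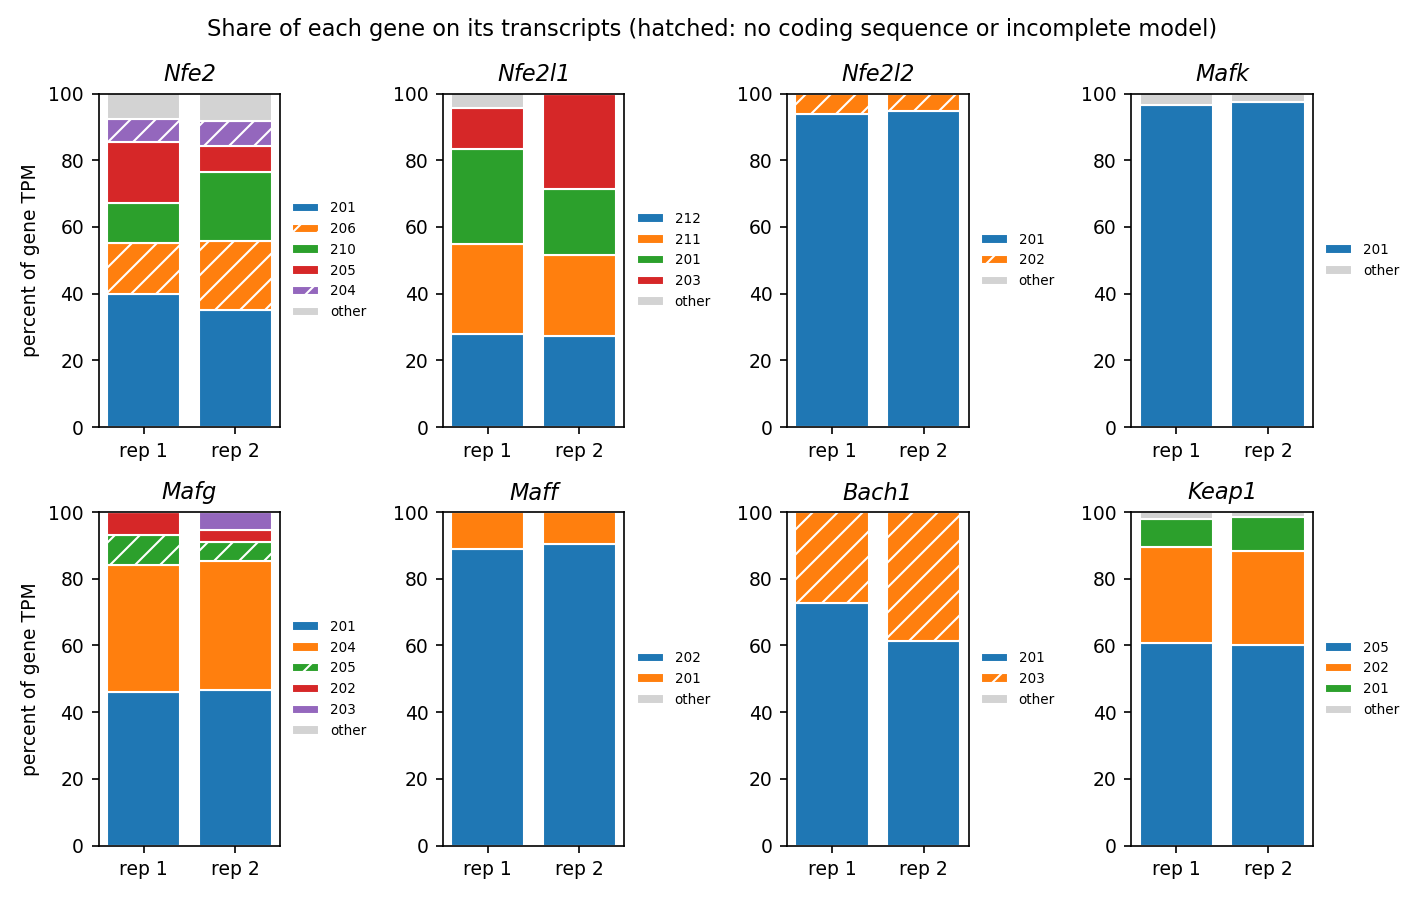
Percent of each gene's TPM on its transcripts in replicates 1 and 2 for the 8 detected genes, with transcripts under 5% in both libraries in grey and hatching for transcripts without coding sequence or with an incomplete annotated end. Mafk and Nfe2l2 have more than 90% on a single transcript in both libraries, Bach1-203 takes 27.1% in replicate 1 and 38.8% in replicate 2, and Nfe2-205 and Nfe2-210 stand in opposite order in the libraries.

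Nfe2 had 10 listed transcripts, all with counts in both libraries. The leading Nfe2-201, of 1697 bases and 373 codons with its start at 103255439, held 40.1% and 35.0% of the TPM. Nfe2-205 and Nfe2-210, which start at 103251465 and 103251516, held 18.5% and 8.06%, and 11.8% and 20.7%. Their sum was 96.8 and 99.5 TPM, so the libraries differed in how reads were divided between them and not in their total. The deposited posterior SDs of Nfe2-205 were 361 and 348 reads on posterior means of 1557 and 788, and only 30 and 33 words of 36 bases were found in Nfe2-205 or Nfe2-210 alone. The division between them is thus poorly determined, although Nfe2-205 is annotated with 396 codons and Nfe2-210 with 373. Transcripts that start within 1 kb of the Nfe2-210 start held 41.0% and 39.9% of Nfe2 TPM and 42.1% and 42.5% of its counts. That group differed little between libraries, but single starts further upstream did differ. In counts Nfe2-201 held 48.0% and 43.8%, and Nfe2-206, which starts at 103253152, held 8.14% and 11.5%.

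Of the Nfe2 transcripts 5 are annotated with an incomplete end, among them Nfe2-206 of 774 bases, which held 15.3% and 20.7% of the TPM. Together they held 908 and 1135 counts, 12.8% and 16.9% of the gene's counts, but 25.9% and 32.4% of its TPM, since they are short. Complete coding models of Nfe2 alone summed to 237 TPM in replicate 1 and 234 TPM in replicate 2, a mean of 236 ± 1.99 TPM. On this scale, chosen after the values were seen, Bach1 had 32.8 ± 0.127 TPM, Mafk 93.6 ± 1.60 TPM, Nfe2l2 62.9 ± 0.438 TPM and Mafg 60.4 ± 2.56 TPM. The order of the genes was the same as with all transcripts, while small Maf and partner sums came closer, at a log2 ratio of -1.15.

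**Figure D4:**
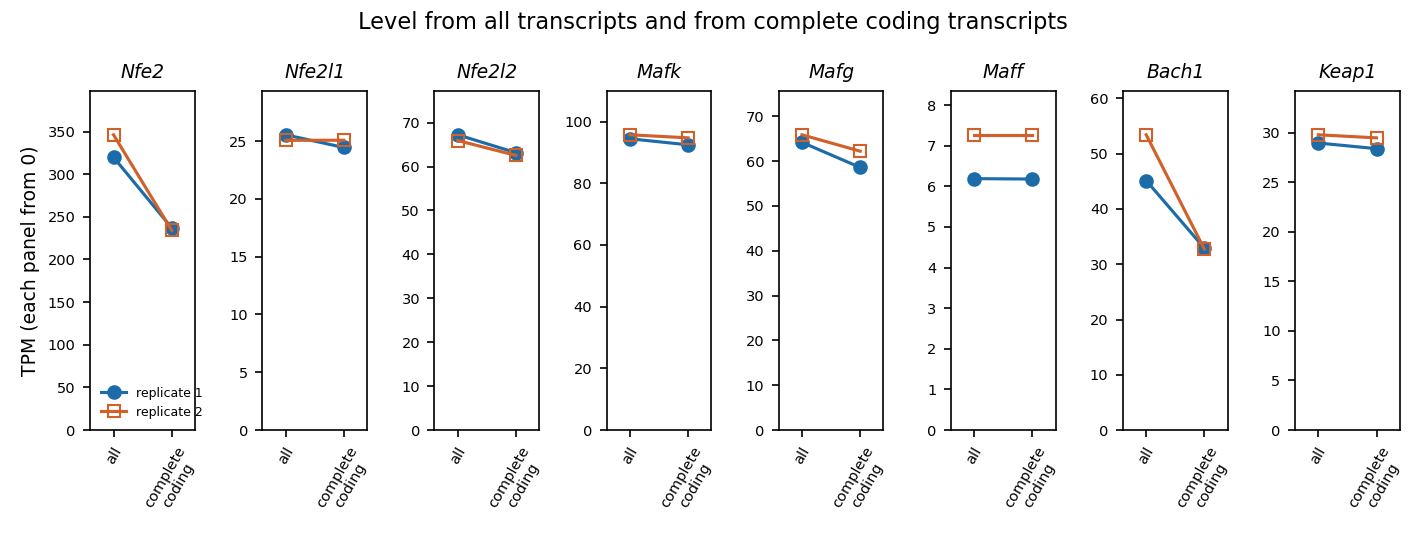
Level of each detected gene in TPM from all transcripts and from complete coding transcripts alone, with circles for replicate 1, squares for replicate 2 and each panel's axis starting at 0. Nfe2 and Bach1 drop most, and their libraries meet at 237 and 234 TPM and at 32.9 and 32.7 TPM.

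Nfe2l1 was spread over 4 coding transcripts at 5% or more in each library. Nfe2l1-201, Nfe2l1-203 and Nfe2l1-211, each with 741 codons, held 28.6%, 12.2% and 26.9% in replicate 1 and 19.8%, 28.6% and 24.2% in replicate 2. The leading transcript by TPM was Nfe2l1-201 in replicate 1 and Nfe2l1-203 in replicate 2, but both leads over Nfe2l1-212 were narrow. Posterior means for Nfe2l1-201 were 583 reads with a posterior SD of 101 and 337 with 88.5. For Nfe2l1-203 they were 266 with 131 and 495 with 127, so the change of lead is weakly determined. Nfe2l1-212 starts inside the gene at 96824127, lacks the first part of the coding sequence with 453 codons, and held 28.0% and 27.4%. No word of 36 bases was found in Nfe2l1-203 or Nfe2l1-212 alone, and posterior means for Nfe2l1-212 were 319 reads with a posterior SD of 87.6 and 259 with 98.2. The share of the short form therefore rests on read density along shared exons. Nfe2l1-210, with 583 codons, was listed at 0 expected counts but had posterior means of 111 reads with a posterior SD of 77.6 and 122 with 91.1, so its absence is not settled. Models of 741 codons together held 17.3 and 18.2 TPM.

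In the remaining genes no transcript share differed by more than 5.35 percentage points between the libraries. Nfe2l2-201, with 597 codons, held 93.9% and 94.9% of Nfe2l2, and the non-coding Nfe2l2-202 the rest. Mafk-201, with 156 codons, held 96.6% and 97.3% of Mafk. Mafg was divided between Mafg-201 of 4923 bases, with 46.2% and 46.6%, and Mafg-204 of 1104 bases, with 38.1% and 38.8%, and both carry the same 162 codons. In counts Mafg-201 held 82.2% and 81.8%, the difference coming from its length. The non-coding Mafg-205 held 8.71% and 5.57%, from only 33.8 and 20.2 counts. Mafg-202 held 7.03% and 3.77%, from 50.45 and 25.3 counts. Maff-202 held 88.9% and 90.5% of Maff and Maff-201 11.1% and 9.47%, each with 156 codons. Posterior means for Maff-201 were 27.8 reads with a posterior SD of 14.6 and 25.6 with 12.1, so its share is weakly determined. The 3 main Keap1 transcripts Keap1-205, Keap1-202 and Keap1-201 all have 624 codons and held 60.7%, 28.9% and 8.38% in replicate 1. In replicate 2 they held 60.1%, 28.2% and 10.1%. Posterior means for Keap1-201 were 135 reads with a posterior SD of 43.7 and 162 with 66.4.

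A transcript share differed by more than 10 percentage points between the libraries in 3 of the 8 genes, namely Nfe2, Nfe2l1 and Bach1. That was so in 41.7% of the 6560 detected protein-coding genes with several transcripts. The leading transcript held 90% or less in both libraries in 5 of 8, against 75.0% of those genes. The members were thus near the background in both counts.

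Neighbouring genes overlap 3 detected members and share words of 36 bases with them, and the effect on the values was not tested. Mafk overlaps Tmem184a on the opposite strand over 169 bases, Mafg overlaps Sirt7 on the same strand over 124 bases, and Keap1 overlaps the antisense gene Gm16754 over 3317 bases. Words of 36 bases unique to the gene made up 96.5% for Mafk, 98.4% for Mafg and 91.2% for Keap1, and at least 99.9% for Nfe2, Nfe2l1, Nfe2l2, Maff and Bach1. Tmem184a was listed with 7531 and 6923 counts beside 4196 and 3909 for Mafk. Sirt7 had 1745 and 1760 beside 2828 and 2677 for Mafg, and Gm16754 555 and 499 beside 1484 and 1398 for Keap1. Whether counting used strand is not given in the sources used here, and without it reads of Keap1 and its antisense partner could not be told apart where they overlap. The deposited posterior SD of the Keap1 count was 11.3 and 10.7 reads.

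Some of these genes are themselves known to be controlled through antioxidant response elements, whose core is TGACNNNGC. RefSeq promoter entries (GRCm38.p6) matched 9 of the 10 genes, all but Nfe2, with 15 starts. In the 250 bases before the start, the core was found on either strand for Nfe2l2, Mafk, Mafg and Maff. These were 4 of 9 genes, beside 11.5% of all 27025 genes with an entry, where a match at any start of a gene counted. By start it was 4 of 15, beside 10.2% of all 32851 starts. Maff has 3 starts, and not all of them have a match. The matches are shown with their surroundings, the core in capitals, 5′ to 3′ on the gene's strand. In Mafk and Mafg the match is on the other strand.

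Nfe2l2 (chr2:75704870-75704913, minus strand): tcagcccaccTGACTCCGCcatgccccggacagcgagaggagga
Mafk (chr5:139791498-139791535, plus strand): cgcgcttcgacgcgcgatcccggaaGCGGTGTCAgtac
Mafg (chr11:120633736-120633794, minus strand): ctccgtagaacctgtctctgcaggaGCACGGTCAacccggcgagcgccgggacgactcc
Maff (chr15:79346484-79346542, plus strand): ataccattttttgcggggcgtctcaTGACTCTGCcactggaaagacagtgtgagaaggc

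The match begins 240 bases before the RefSeq start in Nfe2l2, 13 in Mafk, 222 in Mafg and 112 in Maff. These starts are not always those of the quantified transcripts. Mafk-201 starts at 139791513, so the Mafk match lies inside that transcript. Maff-201 and Maff-202 start at 79347520 and 79348064, well downstream of the Maff match. The 4 genes with an antioxidant response core ranged from 6.73 to 95.1 TPM, and the matches are a description of letters, not of binding. The NF-E2 and AP-1 core TGAGTCA was found for 0 of the 9 genes and for 5.16% of all. AGATAA or TGATAA, letters bound by GATA factors, was found on either strand for Bach2, Keap1 and Maff, 3 of 9, and for 18.8% of all genes. By start it was 3 of 15, beside 16.6% of all starts. No match of one motif overlapped a match of another.

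Genes around the family were summarised by lists of related function, and levels of the lists are plotted together. Beside every count of detected genes below stands the 41.2% of all 21474 protein-coding genes that passed the same threshold. Of 16 genes for large Mafs and other zipper partners, 4 were detected. These were Atf4, an NRF2 partner and stress factor, at 57.9 ± 4.36 TPM, and the AP-1 genes Junb at 40.5 ± 4.77, Jund at 8.83 ± 0.742 and Jun at 3.09 ± 0.0354 TPM. The large Maf genes Maf and Mafa were at 0 counts in both libraries, and Fos stood at 0.20 and 0.11 TPM.

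All 20 genes for turnover and processing of NRF1, NRF2 and BACH1 were detected. Sqstm1, whose product binds KEAP1, was the highest at 400 ± 43.2 TPM. Gsk3a, a kinase gene acting on NRF2, followed at 286 ± 21.9, then the segregase gene Vcp at 126 ± 4.02 and Dpp3, whose product also binds KEAP1, at 52.9 ± 4.06 TPM. Cul3, the scaffold of the KEAP1 ubiquitin ligase, had 43.2 TPM in replicate 1 and 28.7 TPM in replicate 2. Trim21 at 2.18 ± 0.156 and Ngly1, which processes NRF1, at 5.35 ± 0.0283 TPM were the lowest.

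Of 25 antioxidant response genes linked to NRF2, 18 were detected, and the median of the list was 28.0 TPM. The pentose phosphate genes Tkt at 1650 ± 249 and Taldo1 at 533 ± 20.7 TPM led, before the glutathione synthesis gene Gclm at 406 ± 2.36 and the catalase gene Cat at 321 ± 2.15 TPM. The catalytic partner of Gclm, Gclc, had 48.9 ± 0.636 TPM. Nqo1, often used as an NRF2 marker, had 10.1 and 9.92 TPM. Osgin1, Gsta1, Gstm1, Mgst1 and Ephx1 were at 0 counts in both libraries.

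All 12 listed genes that BACH1 is known to bind, most of them haem and iron genes and 1 of them Mafg itself, were detected. Gclm, Nqo1 and Txnrd1 are also on the NRF2 list, so the lists overlap. Ftl1 stood at 10766 ± 451, Fth1 at 2798 ± 183, the biliverdin reductase gene Blvrb at 1924 ± 137 and Gclm at 406 ± 2.36 TPM, while Nqo1 at 10.03 ± 0.156 and Blvra at 10.6 ± 2.71 TPM were the lowest. Hmox1, the haem oxygenase gene that BACH1 represses, had 27.8 and 28.1 TPM, a mean of 27.9 ± 0.226 TPM. Ferritin genes have many near-identical copies, and the alpha globin genes Hba-a1 and Hba-a2 below are a near-identical pair. The level of any single copy is therefore uncertain, and how reads divide between Hbb-bs and Hbb-bt below was not tested.

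The 7 erythroid genes with known NF-E2 sites were all detected at 100 TPM or more, a level that 5.81% of all protein-coding genes reached. They were led by Hbb-bs at 65450 ± 6047 TPM, Hba-a2 at 39024 ± 4526, Hba-a1 at 8836 ± 1175 and Alas2 at 918 ± 16.2 TPM. Fech had 320.4 ± 12.1 and Hbb-bt 602 ± 142 TPM. Of 5 genes that NF-E2 serves in megakaryocytes, 3 were detected, namely the tubulin gene Tubb1 at 62.8 ± 2.09, Lims1 at 15.3 ± 0.269 and the thromboxane synthase gene Tbxas1 at 1.59 ± 0.0495 TPM, while Rab27b at 0.11 ± 0.0990 and Casp12 at 0 TPM were not. All 32 proteasome genes, known targets of NRF1, were detected, against 41.2% of all protein-coding genes. They ranged from 37.2 to 933 TPM, with Psmd4, Psmc3, Psmb2 and Psmd8 the highest. These levels come from induced cells alone and do not show which factor acts on which gene.

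**Figure D5:**
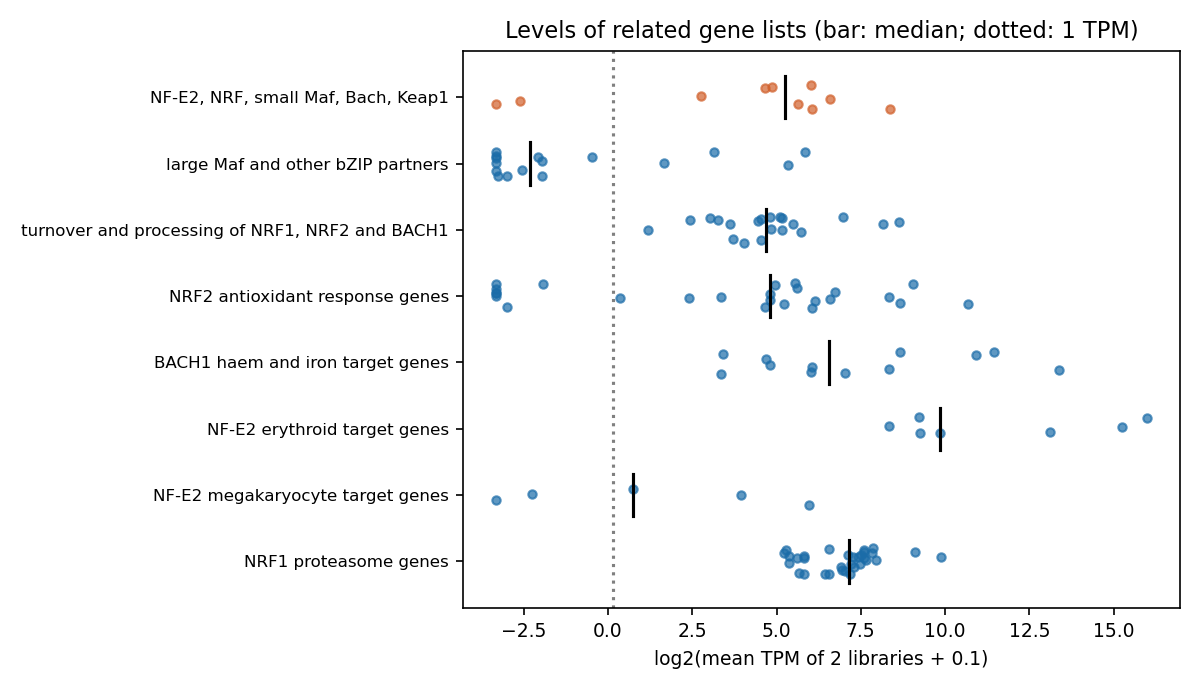
Mean level of each gene over the 2 libraries on the log2(TPM + 0.1) scale, grouped by list, with a bar at each list's median and a dotted line at 1 TPM. The median of the large Maf and partner list lies left of the line, and those of the 10 family genes at 39.3 TPM and of the proteasome list at 141 TPM lie right of it.

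The label of the cells matched their markers. All 10 erythroid markers were detected, with summed levels of 101972 and 117431 TPM, among them Klf1 and Slc4a1. Gata1 is on that list too, but its reads may come from the fusion construct and say nothing of the cells' identity. Of 10 megakaryocyte markers 6 were detected, with sums of 119 and 128 TPM. The detected ones included Tubb1 at 62.8 ± 2.09, Gp1ba at 32.1 ± 2.71, Pf4 at 20.04 ± 0.990 and Itga2b at 3.88 ± 0.389 TPM, while Ppbp and Vwf were near 0 and Gp1bb was at 0 counts. Nfe2 is expressed in that lineage too, and the part of megakaryocyte-like transcription in the Nfe2 level was not tested. Of granulocyte and macrophage markers 1 of 10 was detected, with sums of 3.35 and 4.26 TPM, and of mast cell markers 0 of 10, with sums of 0.29 and 0.61 TPM.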

How the data were processed

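Per the deposited file manifests, reads were aligned and quantified on mm10 with GENCODE M4, 1 library per file. The aligner, quantifier, filters and use of strand were not given in the sources used here. As the file headers show, the authors deposited an expected count for each gene and transcript, TPM, FPKM, the posterior mean and SD of the count, and the percent of a gene's TPM on each transcript. Effective length corresponds to reads of 36 bases.

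Here, names, coordinates and transcript classes came from GENCODE M21 (GRCm38), which matched 42462 of 43346 Ensembl identifiers and all 10 members. Levels are deposited TPM with mean and SD. Detection was 1 TPM in both libraries, and a count of 0 allows up to 3 counts, or 0.147 and 0.162 CPM in replicates 1 and 2. Reads carry no molecular identifiers, so intervals and floors cover counting error only. Neighbours in level were called different where both libraries agreed in order and the gap of mean log2(TPM + 0.1) exceeded the summed SDs. Intervals of library ratios were exact 95% Clopper-Pearson (scipy 1.17.1). Their check on simulated data had counting error as its only spread, so it says nothing of further spread between libraries. Scaling alternatives used edgeR 4.0.16 and DESeq2 1.42.0 on expected counts rounded to whole numbers. Coding sequences were aligned codon by codon with Biopython 1.88, in place of the protein alignment that had been planned. No test between conditions was possible. Named were all members, up to 4 of their transcripts at 5% or more of TPM, and the 4 highest and up to 2 lowest genes of other lists. Cul3, Gclc, Hmox1, Nqo1 as an NRF2 gene, Fos, the marker genes and the antioxidant genes at 0 counts beyond that rule were named after their values were seen, as were the thresholds of 10 percentage points and 90% for transcript shares. The members and lists were chosen with earlier results of these data known. Likeness of pattern to other genes cannot be measured over 2 libraries of 1 group, so no gene is named for it.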

Additional observations from a re-analysis of the deposited data

How the results depend on the processing

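No ratio between family members changed sign under any alternative run. Leaving out either library moved no ratio by more than its SD, which 2 libraries give by construction. From expected counts, which ignore length, the log2 ratio was 2.12 for Nfe2 over Nfe2l1, 1.51 for Nfe2 over Nfe2l2, -0.61 for Nfe2l1 over Nfe2l2, 3.84 for Mafg over Maff, 0.99 for Nfe2 over Bach1, -0.75 for Keap1 over Nfe2l2 and -1.04 for small Mafs over partners. With coding transcripts only it was -1.34 for Nfe2l1 over Nfe2l2, 0.63 for Mafk over Mafg, 3.34 for Nfe2 over Bach1 and -1.12 for Keap1 over Nfe2l2. With complete coding models only, an alternative chosen after seeing the data, it was 3.25 for Nfe2 over Nfe2l1, 1.91 for Nfe2 over Nfe2l2, -1.34 for Nfe2l1 over Nfe2l2, 0.63 for Mafk over Mafg, -1.12 for Keap1 over Nfe2l2 and -1.15 for small Mafs over partners. Posterior mean TPM gave 3.52 for Nfe2 over Nfe2l1, -1.19 for Nfe2l1 over Nfe2l2 and 0.53 for Mafk over Mafg, and a pseudocount of 1 TPM gave -1.36 for Nfe2l1 over Nfe2l2 and 3.10 for Mafg over Maff. Count ratios leave out length and transcript restrictions leave out reads by construction; the cause of the posterior mean shifts was not tested. On TPM in place of count shares, the library difference of Nfe2 was 0.11 and that of Bach1 0.24, while edgeR and DESeq2 scaling moved none of the 8 beyond its interval. The number of detected members stayed within 1.5 times 8 under each threshold, and so did each list's number. Depth limits Maff, with 186 and 199 counts, and Nfe2l3 and Bach2, at or under 3. No paired analysis was possible because both libraries belong to 1 group.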
